A study of Mus musculus with 72 samples.

Results

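The 24 h rhythm of the transcriptome of the suprachiasmatic nucleus (SCN) was examined in mice fed the control diet (Ctrl) in constant darkness (DD). The group holds 18 of the 72 SCN libraries of the series, 3 at each of 6 circadian times (CT0, 4, 8, 12, 16 and 20). All of these mice were male C57BL/6 mice, 8 weeks old at the start, which spent 1 week alone in their cages in constant darkness and then 2 weeks in darkness on a Ctrl diet matched in nitrogen to a diet lacking tryptophan. The series asked how dietary tryptophan and light act on daily rhythms, and the SCN was also sampled from mice on the diet without tryptophan and from mice under 12-h light/dark cycles (LD). The group most like it, Ctrl LD, had the same strain, sex, age, diet and sampling interval, and differed in the light schedule. How CT was set for each mouse in darkness is not given in the sources used here. Each library was made from poly(A) RNA with a stranded kit, and its values are FPKM, fragment counts divided by transcript length and by the fragments mapped in the library. The number of reads behind an FPKM value is unknown, so error is judged only from how far the 3 mice sampled at each time lay apart.

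The SCN is the pacemaker of the mammalian circadian system, a paired nucleus of GABAergic neurons above the optic chiasm. In its cells ARNTL (BMAL1) and CLOCK bind E-boxes and drive the Per, Cry, Nr1d (REV-ERB) and Dbp genes. PER and CRY proteins then repress their own transcription, REV-ERB proteins repress Arntl through a REV-ERB/ROR element, and DBP acts on D-boxes. Neuropeptides such as VIP, AVP, NMS and PROK2, with their receptors, couple the cells to one another and carry the timing signal out of the nucleus. In constant darkness a rhythm runs without the light signal from the retina.

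The 18 libraries were placed by value and not by the names of their columns. In the study's supplementary table of oscillating genes, the 18 Ctrl DD libraries held, over the 124 to 134 genes that could be compared in each, values equal in every gene to those of 1 deposited column, and no other column was equal in more than 1 gene. All 18 matching columns carry names of the light/dark cycle and of other hours, some as Ctrl LD and the rest as the tryptophan-free group in LD. The libraries used as Ctrl LD were placed in the same way. All of their columns carry names of constant darkness, as Ctrl or as the tryptophan-free group. The names and the placement therefore disagree on the light schedule of every library compared here. The order of that table was used here. With the columns as they are named, the values below come from other libraries, and 6874 genes passed JTK_CYCLE at p under 0.05. Replicate numbers name libraries only.

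The library CT12 replicate 1 stood apart. Of 13334 genes averaging 1 FPKM or more, 394 were more than 2 times as high in it as in the highest of the other 17 libraries and 750 were under 0.5 times the lowest of them. Among the genes that were high there, Neurod6, a transcription factor of excitatory cortical neurons, read 51.3 FPKM against at most 0.897 FPKM in the others, and Slc17a7, the vesicular glutamate transporter of cortex and hippocampus, read 279 FPKM against at most 9.45 FPKM. Neurod2, Dkkl1, Egr3, Adcy1, Spink8, E130012A19Rik, Gabrd and Car7 completed the 10 genes that exceeded the other libraries by the widest ratio. The 8 SCN neuron markers (Avp, Vip, Nms, Six6, Lhx1, Rgs16, Prok2 and Vipr2) summed to 40.9 FPKM in CT12 replicate 1 and to between 148 and 540 FPKM in the other 17 libraries. The main counts, and the amplitudes or p-values of many of the genes named below, are given with and without this library.

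The other 17 libraries also differed in the levels of tissue markers. The SCN marker sum was 148, 393 and 487 FPKM at CT0 (lowest, middle and highest library), 402, 412 and 477 at CT4, 268, 340 and 470 at CT8, 229 and 304 in the remaining libraries of CT12, 161, 402 and 472 at CT16 and 481, 520 and 540 at CT20. By the middle of the 3 libraries of a time it was lowest at CT12 (229 FPKM, CT12 replicate 1 included) and highest at CT20 (520 FPKM). Single libraries of CT0 and CT16 lay lower, at 148 and 161 FPKM. In each of the 17 libraries Avp made up most of this sum, so its course over the day is largely that of Avp. Meningeal markers (Dcn, Col1a1, Col1a2, Lum, Igf2 and Slc6a13) summed to 12.5 to 15.0 FPKM at CT0, and at CT12 to 33.2 and 37.2 FPKM, beside 167 FPKM in CT12 replicate 1. Cga, a hormone subunit of the pituitary and pars tuberalis, lay between 0.0548 and 42.3 FPKM, and Ttr, a choroid plexus gene, between 0.57 and 286 FPKM. In bulk samples, fewer cells of a type and less RNA per cell cannot be told apart.

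**Figure D1:**
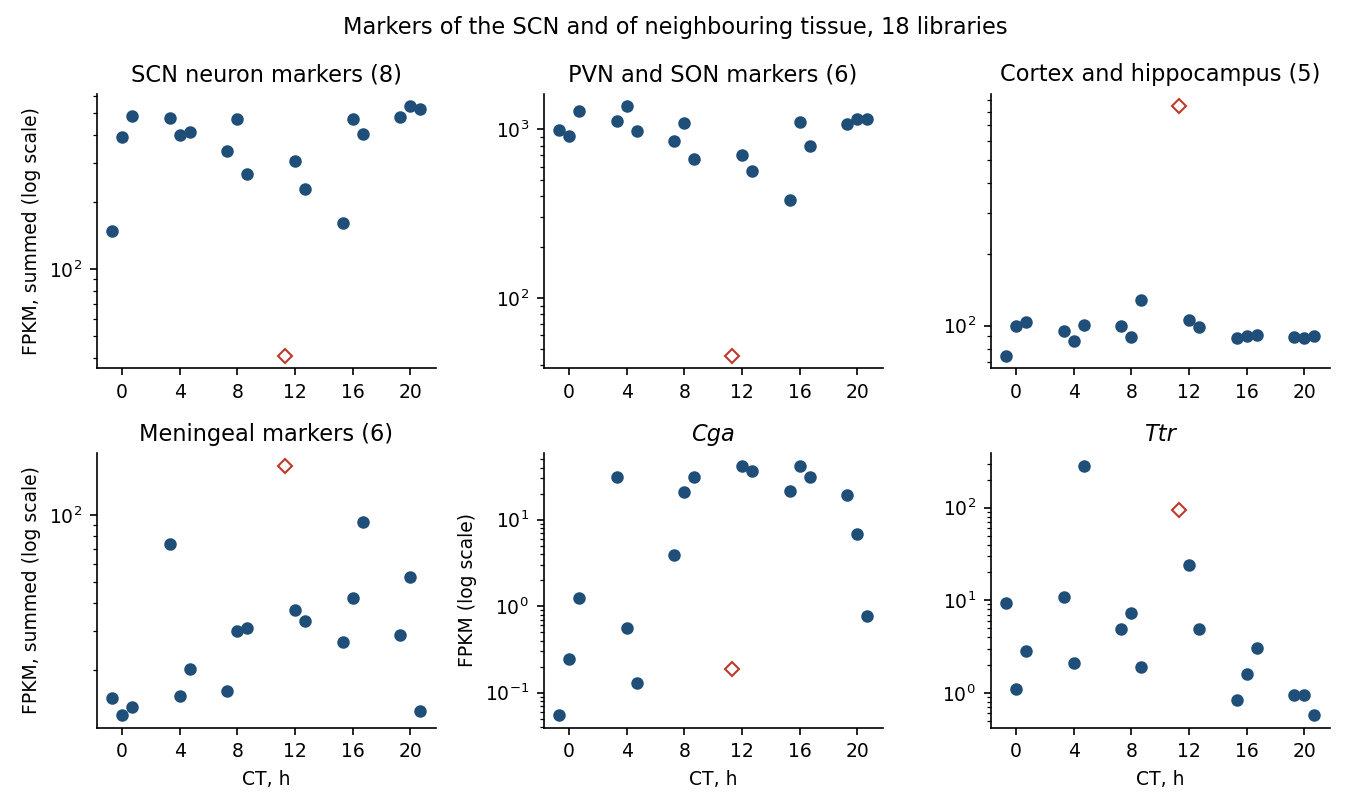
Summed FPKM of markers of the SCN and of neighbouring tissue, and FPKM of Cga and Ttr, in each of the 18 Ctrl DD libraries (y axis, log scale) against CT in h (x axis). The open red diamond is CT12 replicate 1, at 40.9 FPKM for the SCN markers and 845 FPKM for the cortical and hippocampal ones, against 74.6 to 128 FPKM in the other 17 libraries.

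Rhythm was called first by JTK_CYCLE at p under 0.05. JTK_CYCLE is a rank test of each gene against cosine shapes of 24 h, used with its exact null distribution and no correction over genes. It called 1225 of 24883 genes (4.92%), and 0 genes after Benjamini-Hochberg adjustment over all genes. A threshold of 0.05 lets through a share of up to 0.05 without any rhythm. Among the 14496 genes averaging 0.5 FPKM or more, referred to as expressed, JTK_CYCLE called 959 (6.62%), and 1035 (7.14%) without CT12 replicate 1. A limma cosinor fit of log2(FPKM + 0.5) gave 1184 genes at an unadjusted p under 0.05 (8.17%) and 0 at an adjusted p under 0.05 (0.00%), the smallest adjusted p being 0.2. Every rhythm named in this group is therefore a call at an uncorrected threshold, and rests on the size and the agreement of its libraries.

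The peak times of the uncorrected calls were concentrated in 2 windows. JTK_CYCLE placed 380 of the 1225 genes (31%) at CT0 to CT4 and 575 (46.9%) at CT12 to CT16, against 71 (5.8%) at CT6 to CT10 and 199 (16.2%) at CT18 to CT22. The most frequent peak was CT14, with 315 genes, followed by CT2, with 207. Without CT12 replicate 1 the same test called 1288 genes, 781 of them shared (63.8% of the calls with all libraries and 60.6% of those without it), and the windows held 23.4%, 50.6%, 8.23% and 17.8% of the calls in the order given above. In Ctrl LD the 4 windows held 21.5%, 16.6%, 32.6% and 29.4% of the calls over all genes. Of the 14199 genes expressed there, 1548 were called (10.9%). Whether these shares differ between the schedules was not tested.

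**Figure D2:**
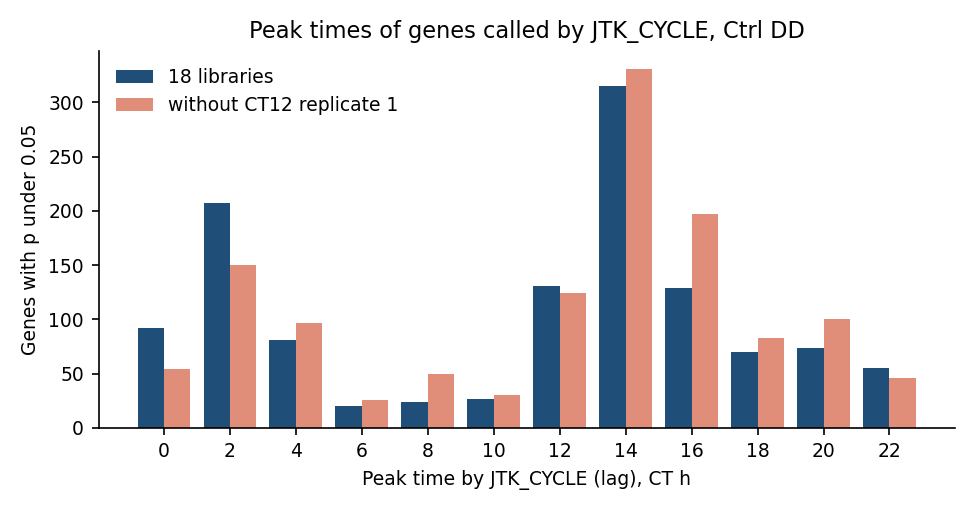
Number of genes called by JTK_CYCLE at p under 0.05 (y axis) at each peak time in h (x axis), with all 18 Ctrl DD libraries and without CT12 replicate 1. The highest bars stand at CT14, with 315 genes for the 18 libraries, and the lowest at CT6 to CT10.

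The smallest JTK_CYCLE p-value belonged to Slc25a34, a member of the mitochondrial carrier family. Its FPKM values were 3.66, 3.39 and 4.11 at CT0, 3.16, 3.37 and 3.19 at CT4, 2.89, 3.01 and 3.31 at CT8, 1.54, 2.53 and 2.78 at CT12, 2.38, 2.56 and 2.63 at CT16 and 2.67, 3.06 and 2.91 at CT20. The 3 libraries of CT0 lay above all others and the trough was at CT12 and CT16 (JTK_CYCLE p = 2.13e-05, adjusted p = 0.215; p = 0.000108 without CT12 replicate 1). Its log2 amplitude, the distance from the fitted mean to the fitted peak, was 0.28 ± 0.05 (SE), with a peak at CT1.8 ± 0.723 h.

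Frmpd3, which encodes a FERM and PDZ domain protein (chrX:140342263-140435467, GRCm38), had the smallest cosinor p-value. It read 5.14, 4.6 and 4.69 FPKM at CT0, 4.99, 5.09 and 4 at CT4, 4.14, 3.71 and 4.29 at CT8, 2.25, 2.74 and 3.22 at CT12, 3.92, 2.6 and 3.21 at CT16 and 3.3, 3.65 and 3.3 at CT20. The CT0 libraries lay above all libraries of CT8 to CT20, and CT12 held 2 of the 3 lowest values of the day. The log2 amplitude was 0.36 ± 0.06 with a peak at CT2.47 ± 0.595 h (limma adjusted p = 0.2). Without CT16 replicate 1 it was the only gene that passed the adjusted threshold, at a limma adjusted p of 0.0127 and a log2 amplitude of 0.41.

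Glod5, a glyoxalase domain gene, had its lowest values at CT12 in all 3 libraries, 0.265, 0.572 and 0.309 FPKM, against 0.749 to 1.89 FPKM in the other 15 (JTK_CYCLE p = 0.000104, log2 amplitude 0.49 ± 0.09 with and 0.43 without CT12 replicate 1). Col4a5, a chain of basement membrane collagen, ran the other way, from 1.29, 2.02 and 1.41 FPKM at CT0 to 2.65, 2.66 and 2.33 at CT12 and 2.22, 2.61 and 2.99 at CT16 (JTK_CYCLE p = 0.000104, log2 amplitude 0.28 with and 0.27 without CT12 replicate 1, peak at CT12.4 ± 0.73 h). For both genes CT0 and CT12 did not overlap. Nkx6-2, a homeobox gene of the oligodendrocyte lineage, was highest at CT0 (17.2, 18.5 and 15.2 FPKM) and CT20 (16.1, 17.2 and 14.5 FPKM), and its lowest value, 7.61 FPKM, was in CT12 replicate 1. Zfp346, a zinc finger gene, moved by a log2 amplitude of only 0.09 ± 0.02, but its CT0 libraries, at 7.72, 7.71 and 7.73 FPKM, were the 3 lowest of the 18 (JTK_CYCLE p = 6.27e-05, peak at CT12.3 by the cosinor).

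Iqgap2 and Lix1 illustrate what CT12 replicate 1 adds. Iqgap2, a scaffold protein of the actin cytoskeleton, read 7.7 FPKM in that library and 1.93 and 1.95 FPKM in the other CT12 libraries, against 1.06, 1.32 and 1.49 FPKM at CT0. Its log2 amplitude was 0.40 with this library and 0.19 without it, and JTK_CYCLE, which uses ranks, gave p = 3.71e-05 and 0.000184. Lix1, a gene first described in the developing limb, read 16.9 FPKM there and 8.7 and 8.22 FPKM in its companions, against 3.33 to 5.98 FPKM at CT0 and CT4 (log2 amplitude 0.52 with and 0.40 without CT12 replicate 1). Snx22 and Sntg1, called at the rarer peak times with small p-values, had small amplitudes. Snx22, a sorting nexin gene with its peak at CT18 by JTK_CYCLE, read 11.1, 11 and 10.7 FPKM at CT20 and 8.93, 8.96 and 7.8 FPKM at CT4 (p = 0.000265, log2 amplitude 0.13). Sntg1, a syntrophin gene with its peak at CT8, read 4.18, 4.59 and 4.01 FPKM at CT8 and 3.71, 3.23 and 3.66 FPKM at CT20 (JTK_CYCLE p = 0.000943, log2 amplitude 0.11). Both had groups of libraries at peak and trough that did not overlap.

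None of the 13 core clock genes was called by JTK_CYCLE in darkness, against the 6.62% of expressed genes, and none without CT12 replicate 1. Their median log2 amplitude, 0.089, was near the 0.071 of all genes tested. In Ctrl LD 7 of the same 13 were called, against 10.9% of genes. Leaving out CT16 replicate 3 or CT20 replicate 2 gave 1 call each. Of the 21 expressed genes listed as clock outputs and modifiers, Timeless, Nampt and Rgs16 were called, all of them also without CT12 replicate 1, and 8 of the 21 were called in Ctrl LD. Leaving out CT16 replicate 1 gave 5 calls in this list.

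Several clock genes had low or high values at CT0 and in libraries of CT12, as described below. The promoters of 4 of them are shown because each has a window that carries a recognition sequence of the clock. Per1 and Arntl each have a second window, without the element, and the window of Dbp holds no E-box. Sequences are from RefSeq (GRCm38.p6), run from 250 bases before to 50 bases after the gene start and are written 5′ to 3′ on the strand of the gene. Capitals mark the E-box CACGTG in Ciart and Per1, the D-box (TTATGTAA or TTACGTAA) in Per3 and the REV-ERB/ROR element (TAGGTCA or TGGGTCA) in Arntl, on either strand.
Ciart (chr3:95882179-95882478, minus strand): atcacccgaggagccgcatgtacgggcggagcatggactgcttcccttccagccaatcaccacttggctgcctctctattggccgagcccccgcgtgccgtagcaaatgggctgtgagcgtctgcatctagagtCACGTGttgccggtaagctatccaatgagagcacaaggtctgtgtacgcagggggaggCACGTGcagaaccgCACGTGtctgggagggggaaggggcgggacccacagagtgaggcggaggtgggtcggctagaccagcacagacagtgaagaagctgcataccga
Per1 (chr11:69098699-69098998, plus strand): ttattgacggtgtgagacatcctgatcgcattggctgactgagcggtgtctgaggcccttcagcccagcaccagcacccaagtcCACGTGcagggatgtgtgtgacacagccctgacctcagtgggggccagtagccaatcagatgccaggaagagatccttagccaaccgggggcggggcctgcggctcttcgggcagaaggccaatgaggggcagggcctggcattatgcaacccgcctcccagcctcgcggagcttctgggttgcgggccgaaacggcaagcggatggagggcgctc
Per3 (chr4:151044616-151044915, minus strand): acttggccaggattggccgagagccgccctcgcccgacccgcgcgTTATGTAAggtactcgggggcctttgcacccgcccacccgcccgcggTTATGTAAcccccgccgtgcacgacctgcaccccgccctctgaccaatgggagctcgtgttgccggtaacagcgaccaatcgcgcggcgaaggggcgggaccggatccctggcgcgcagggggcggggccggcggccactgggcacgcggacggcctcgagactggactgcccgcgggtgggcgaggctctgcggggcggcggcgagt
Arntl (chr7:113207261-113207560, plus strand): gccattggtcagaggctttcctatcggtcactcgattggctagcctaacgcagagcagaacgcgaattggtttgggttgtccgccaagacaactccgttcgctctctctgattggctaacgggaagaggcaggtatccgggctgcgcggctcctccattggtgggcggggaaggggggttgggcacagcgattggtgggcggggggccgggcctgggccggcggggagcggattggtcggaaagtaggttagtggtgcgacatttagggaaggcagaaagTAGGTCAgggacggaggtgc

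These letters were searched on both strands of 32851 promoter windows of mouse genes. The E-box was found in 7.15% of all windows, the D-box in 1.06% and the REV-ERB/ROR element in 6.45%. Of the core clock genes 11 had a window, and the E-box stood in those of Cry1 and Per1, the D-box in that of Per3 and the REV-ERB/ROR element in that of Arntl. Of the 15 output and modifier genes with a window, Ciart, Bhlhe41, Tspan4, Tef and Lonrf3 held an E-box and Timeless a D-box. A match is a description of the letters in the window, and its absence says nothing about binding elsewhere.

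Dbp, the D-box activator and the most strongly cycling direct output of the SCN clock, read 8.81, 17.4 and 12.2 FPKM at CT0, 22.6, 21.9 and 20.2 at CT4, 22.4, 21.2 and 24.8 at CT8, 11.5, 22.8 and 11.7 at CT12, 16.8, 22.7 and 23.8 at CT16 and 23.9, 27.2 and 18.9 at CT20. Its values were low at CT0 and in 2 of the 3 libraries of CT12, and higher in most libraries of the other times, although CT16 replicate 1 lay below CT0 replicate 2. A 24 h cosine took up little of this variation (log2 amplitude 0.07 ± 0.14, limma adjusted p = 0.967, JTK_CYCLE p = 1). In Ctrl LD the means of Dbp were 16.6, 28.3, 35.4, 36.2, 21.7 and 16.2 FPKM from ZT0 to ZT20, a single daily wave with a log2 amplitude of 0.65 and a peak at ZT9.32 (limma adjusted p = 1.03e-05).

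Ciart, a repressor of the ARNTL and CLOCK complex, had 5.79, 6.53 and 5.96 FPKM at CT0, 7.93, 8.89 and 8.15 at CT4, 7.96, 8.8 and 8.13 at CT8, 4.95, 8 and 4.82 at CT12, 6.81, 8.2 and 7.88 at CT16 and 7.33, 9.99 and 7.76 at CT20. The low libraries were again the 3 of CT0 and replicates 1 and 3 of CT12. Per1, a negative limb gene that also answers light and cAMP, read 7.77, 10.2 and 10.4 FPKM at CT0, 13.7, 13 and 11.7 at CT4, 12.9, 12.7 and 13.3 at CT8, 8.68, 11.4 and 9.8 at CT12, 10.6, 11 and 12.5 at CT16 and 10.4, 14.5 and 13.2 at CT20. All of its CT4 and CT8 libraries lay above those of CT0 and CT12.

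Per3 read 7.47, 9.92 and 8.75 FPKM at CT0, 11.6, 10.3 and 11.7 at CT4, 11.7, 12.6 and 11.8 at CT8, 7.86, 12.3 and 10.3 at CT12, 9.93, 13.6 and 14.2 at CT16 and 12.2, 12.5 and 12.4 at CT20. Here too the lowest values were at CT0 and in CT12 replicate 1. Arntl, the positive limb gene, did the reverse, with 9.5, 9.3 and 8.91 FPKM at CT0, 8.06, 7.61 and 7.76 at CT4, 6.41, 7.54 and 7.45 at CT8, 11.8, 7.74 and 9.7 at CT12, 7.72, 6.7 and 7.38 at CT16 and 7.43, 6.97 and 8.03 at CT20. The 5 highest Arntl values of the 18 were those of the 3 CT0 libraries and of CT12 replicates 1 and 3, and the 4 lowest Dbp values were those of CT0 replicates 1 and 3 and the same libraries of CT12.

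**Figure D3:**
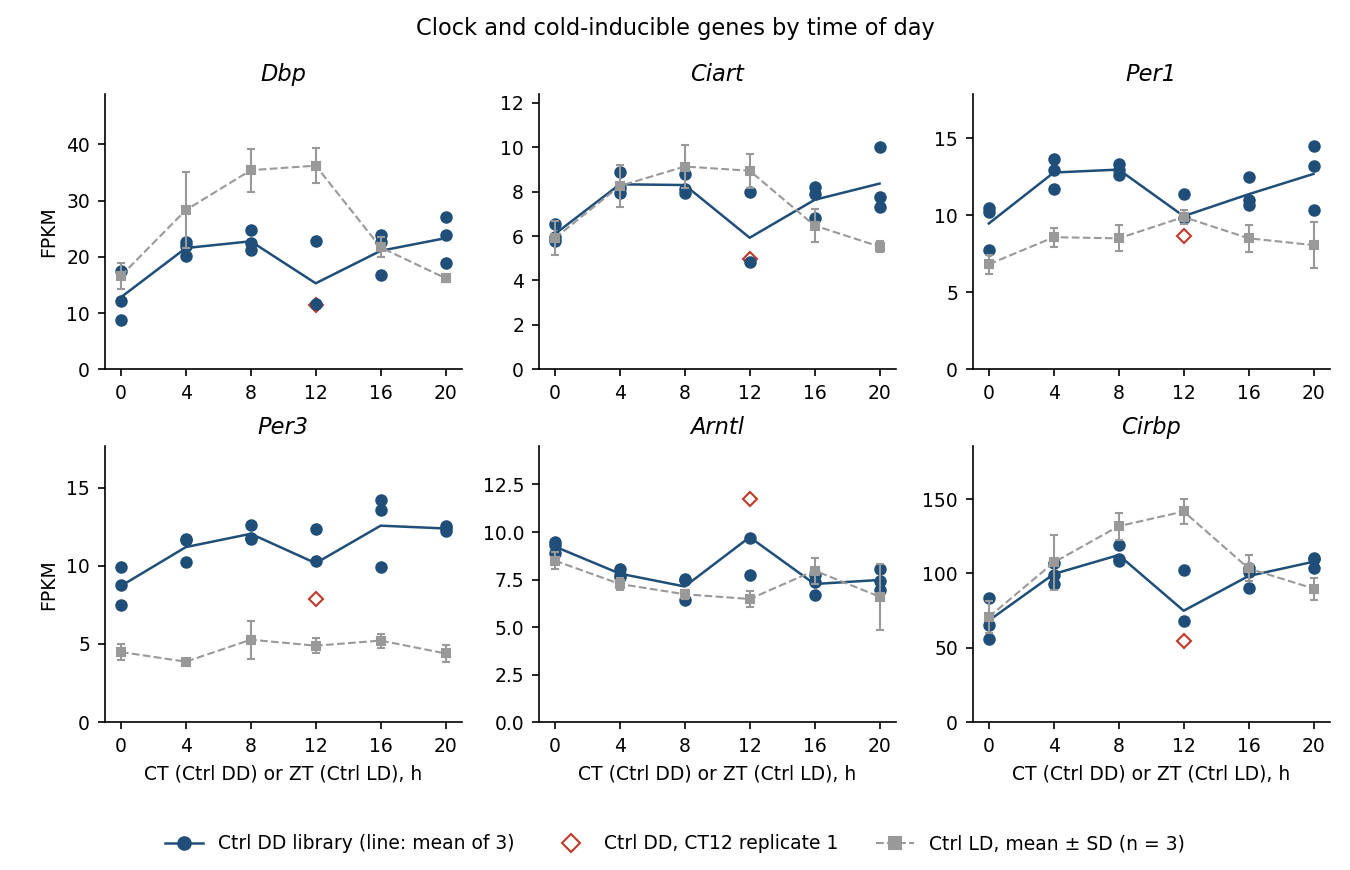
FPKM (y axis) of Dbp, Ciart, Per1, Per3, Arntl and Cirbp against time in h (x axis). Blue points are the Ctrl DD libraries with a line through the mean of 3, the open red diamond is CT12 replicate 1, and grey squares are Ctrl LD means ± SD (n = 3). In darkness Dbp, Ciart, Per1, Per3 and Cirbp were low at CT0 and in CT12 replicate 1, where Arntl was high at 11.8 FPKM.

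A 12 h cosine and sine were therefore fitted beside the 24 h ones, a test chosen after these values were seen. It called 1051 of 14496 genes at an unadjusted p under 0.05 (7.25%) and 0 at an adjusted p under 0.05 in limma. Of the core clock genes 5 of 13 passed the unadjusted threshold (Arntl, Nr1d2, Per1, Per2 and Per3), and 8 of 13 without CT12 replicate 1, when 1657 genes passed in all. In Ctrl LD 2 of the 13 passed, when 810 genes passed in all. Of the 21 outputs 5 passed (Ciart, Dbp, Lonrf3, Nfil3 and Tspan4). The 12 h log2 amplitude was 0.45 ± 0.09 for Dbp, 0.27 ± 0.06 for Ciart, 0.22 ± 0.05 for Per1 and for Per3 and 0.26 ± 0.07 for Per2, with first peaks between CT5.86 and CT6.28, and 0.24 ± 0.05 for Arntl, with its first peak at CT0.325. The adjusted p-values of these genes in limma lay between 0.441 and 0.563. With 3 libraries at 6 times, a 12 h wave and low values at CT0 and CT12 cannot be told apart.

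Genes outside the clock with low values at CT0 and in libraries of CT12 were also examined, and were chosen after their values were seen. Cirbp, a cold-inducible RNA-binding protein gene that follows body temperature, read 55.9, 65.6 and 83.6 FPKM at CT0, 92.9 to 119 FPKM at CT4 and CT8, 54.5, 102 and 68.1 at CT12 and 90 to 110 FPKM at CT16 and CT20 (12 h log2 amplitude 0.37 ± 0.06). Rbm3, another cold-inducible gene, read 29.6, 28.8 and 44.8 FPKM at CT0, 88.5, 84.5 and 63.1 at CT8, 58.9, 60.7 and 31.6 at CT12 and 69.6, 64 and 78.3 at CT20 (12 h log2 amplitude 0.50 ± 0.10). In Ctrl LD both had a single wave, with 24 h log2 amplitudes of 0.45 and 0.63 (limma adjusted p = 0.00126 and 0.00466).

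Of 16 expressed glucocorticoid response genes 8 passed the 12 h test at the unadjusted threshold (Cdkn1a, Mt1, Mt2, Nfkbia, Per1, Plin4, Sgk1 and Tsc22d3), against 7.25% of all genes, and 10 without CT12 replicate 1. Of the 8, 7 had their first peak at CT4 to CT8, as did 353 of the 1051 genes that passed in all. Cdkn1a had its first peak at CT10.9, and Per1 is also counted among the core clock genes. Mt2, a metallothionein gene, read 103, 123 and 145 FPKM at CT0 and 192 to 215 FPKM at CT4, and Tsc22d3 (GILZ), a classical target of the glucocorticoid receptor, read 30.1, 27.3 and 31.6 FPKM at CT0 and 46.8, 45 and 63.4 at CT20. For Mt2 the groups of CT0 and CT4 did not overlap, nor did those of CT0 and CT20 for Tsc22d3. These values show the low level at CT0 only and do not cover CT12. The heat shock list had 4 of 20 genes past the threshold (Ahsa1, Hsp90ab1, Hspa8 and Hsph1), 0 of them with a first peak at CT4 to CT8. Without CT12 replicate 1 it had 15 of 20, when 1657 of 14441 genes passed in all. In Ctrl LD the same test passed 5 of the glucocorticoid response genes, 6 of the heat shock genes and 810 of all genes. Hsph1, a co-chaperone, read 109, 111 and 92.2 FPKM at CT0, 66.7, 86 and 114 at CT12, and 67.3 to 90 FPKM at CT4 and CT8. CT12 replicate 1 was its lowest library.

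Across the 18 libraries, Dbp was compared with the other 33 genes of both clock lists, on the log2 scale. Benjamini-Hochberg adjusted permutation p-values over these 33 relations were under 0.05 for 7 genes by Pearson's r and for 7 by Spearman's rho. Ciart followed Dbp most closely by r (r = 0.87, permutation p = 3e-05, adjusted p = 0.00044, and rho = 0.73, adjusted p = 0.012). It ranked at place 6 of 14495 genes by r from the highest positive value down, with negative r not counted by size. Per3 had r = 0.86 (rho = 0.70), Per1 r = 0.82 (rho = 0.70) and Arntl r = -0.81 (rho = -0.79), each with an adjusted permutation p of at most 0.00082 for r and 0.016 for rho. Without the 2 libraries farthest from the median of Dbp (CT0 replicate 1 and CT12 replicate 3), r was 0.87 for Ciart, 0.84 for Per3, 0.68 for Per1 and -0.82 for Arntl, and without CT12 replicate 1 it was 0.85, 0.84, 0.79 and -0.85.

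The same relations were then computed within time points, after removing the mean of each time. Ciart kept r = 0.74, Per3 0.72, Per1 0.57 and Arntl -0.64, with raw permutation p-values of 0.01, 0.024, 0.07 and 0.042 and adjusted ones of 0.26, 0.26, 0.35 and 0.35. None of the 33 passed the correction within time points. In Ctrl LD 13 of the 33 relations passed over all libraries and 2 within time points, with an r of 0.97 for Ciart (rho = 0.96, adjusted permutation p = 0.00033 for both), 0.63 for Per1 (rho = 0.53, adjusted p = 0.019 and 0.067), 0.19 for Per3 (rho = 0.10, adjusted p = 0.55 and 0.83) and -0.33 for Arntl (rho = -0.52, adjusted p = 0.29 and 0.067). Genes with an r of at least 0.8 with Dbp numbered 31 in Ctrl DD and genes with an r of at most -0.8 numbered 18.

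Libraries of the same time point differed as much in these genes as the means of different times did. The median SD of the core clock genes within time points was 0.183 on the log2 scale in Ctrl DD, beside an SD of 0.184 between the time means, and 0.144 and 0.13 in Ctrl LD. Per2, with 4.53 to 5.39 FPKM at CT0, 5.6 to 8.2 at CT4, 3.56 to 4.77 at CT12 and 4.69 to 7.39 at CT20, had an SD within times of 0.225 in darkness and 0.115 in Ctrl LD. Nr1d1, which encodes REV-ERBα, read 18.7, 30.7 and 26.8 FPKM at CT0 and 32.6, 31.6 and 26.9 at CT4, with means between 25.0 and 30.4 FPKM over the day (24 h log2 amplitude 0.09 ± 0.07, JTK_CYCLE p = 1). In Ctrl LD its log2 amplitude was 0.26 (limma adjusted p = 0.0132). For all genes the median SD within times was 0.15 in Ctrl DD and 0.148 in Ctrl LD.

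Timeless, the partner of Tipin at replication forks and a modifier of the clock (chr10:128232065-128252941, GRCm38), was the member of the clock lists with the smallest JTK_CYCLE p-value. It read 0.665, 0.58 and 0.677 FPKM at CT0, 0.931, 0.505 and 0.618 at CT4, 0.705, 0.604 and 1.16 at CT8, 1.08, 1.39 and 1.28 at CT12, 1.34, 2.25 and 1.64 at CT16 and 0.977, 0.671 and 0.692 at CT20. The CT16 libraries lay above those of every other time except 1 CT12 library, and those of CT12 above those of CT0, CT4 and CT20. The log2 amplitude was 0.44 ± 0.08 with a peak at CT14.3 ± 0.731 h (JTK_CYCLE p = 0.000412, limma adjusted p = 0.234), and 0.46 without CT12 replicate 1. The level is low, near 1 FPKM, and FPKM gives no counting error.

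Rgs16, a GTPase activator that shapes cAMP signalling in the SCN, read 19.5, 16.7 and 27.4 FPKM at CT0, 20.9, 24.6 and 11.1 at CT4, 9.16, 8.34 and 11.7 at CT8, 3.97, 7.27 and 14 at CT12, 5.75, 10.7 and 10 at CT16 and 7.17, 14.9 and 14.8 at CT20. Its 3 CT0 libraries lay above every library of CT8 to CT20 (log2 amplitude 0.73 ± 0.15, peak at CT1.27 ± 0.803 h, JTK_CYCLE p = 0.00576, and 0.0224 without CT12 replicate 1). Nampt, the rate-limiting enzyme of NAD salvage and an E-box gene, ranged from 10.9 to 14.1 FPKM, with 11.1, 10.9 and 11.1 FPKM at CT0 and 13.6, 13.8 and 12.5 FPKM at CT8 (log2 amplitude 0.09 ± 0.03, JTK_CYCLE p = 0.0441).

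**Figure D4:**
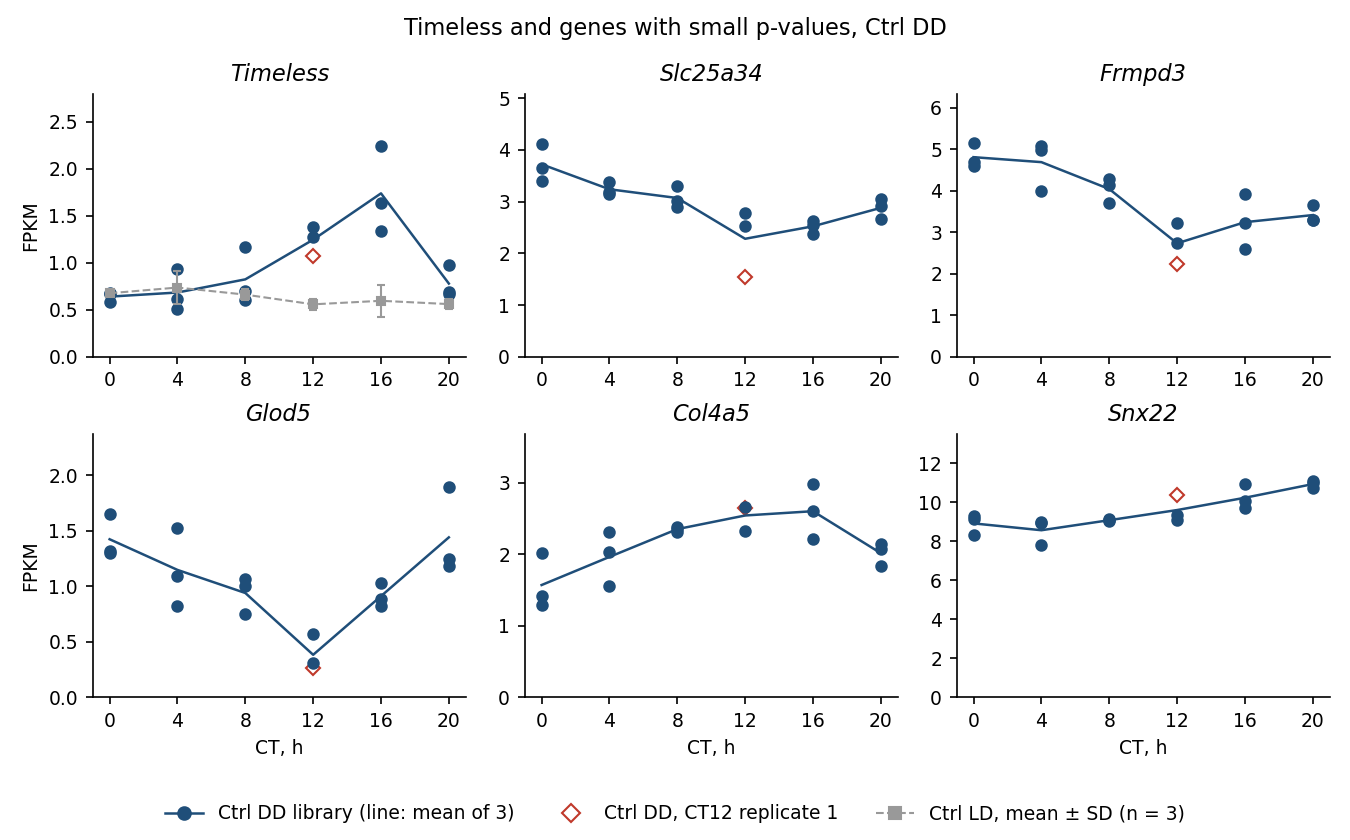
FPKM (y axis) of Timeless, Slc25a34, Frmpd3, Glod5, Col4a5 and Snx22 against time in h (x axis). Blue points are the Ctrl DD libraries with a line through the mean of 3, the open red diamond is CT12 replicate 1, and the grey squares in the first panel are Ctrl LD means ± SD (n = 3). Timeless rose to between 1.34 and 2.25 FPKM at CT16, and Glod5 was lowest at CT12.

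Among the SCN peptides and their receptors, 5 of 19 expressed genes were called, against 6.62% of all expressed genes. These 5 were Nms, Vipr2, Prokr2, Cckar and Penk. All had peaks at CT0 to CT2 by JTK_CYCLE, and 2.13% of expressed genes were called with a peak at CT0 to CT4. Without CT12 replicate 1, 5 genes were also called, 4 of them shared. The median log2 amplitude of the list was 0.39, beside 0.071 for all genes. In Ctrl LD 2 of the 19 were called, against 10.9% of the genes expressed there. The other members, Avp, Vip and Prok2 among them, did not pass.

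Nms, the neuropeptide neuromedin S of pacemaker cells, read 3.74, 2.68 and 4.41 FPKM at CT0, 2.97, 3.59 and 0.921 at CT4, 0.729, 0.67 and 2.57 at CT8, 0.153, 0.196 and 1.53 at CT12, 0.0723, 1.49 and 0.729 at CT16 and 0.282, 1.86 and 1.72 at CT20. All CT0 libraries exceeded all libraries of CT8 to CT20 (log2 amplitude 0.99 ± 0.23 with and 0.92 without CT12 replicate 1, peak at CT1.58 ± 0.9 h, JTK_CYCLE p = 0.00576). Vipr2, the receptor through which VIP synchronizes SCN neurons, read 3.17, 2.54 and 3.99 FPKM at CT0, 2.45, 3.49 and 1.04 at CT4, 0.844, 0.793 and 1.67 at CT8, 0.377, 0.412 and 1.7 at CT12, 0.941, 2.33 and 2.29 at CT16 and 0.466, 2.84 and 3.8 at CT20. The CT20 libraries spanned nearly the whole range of the day (log2 amplitude 0.69 ± 0.21 with and 0.62 without CT12 replicate 1, JTK_CYCLE p = 0.00412).

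Prokr2, the receptor of the output signal PROK2, read 2.74, 2.67 and 3.48 FPKM at CT0, and 1.03, 0.983 and 1.68 FPKM at CT8 (JTK_CYCLE p = 0.0109). Cckar, a cholecystokinin receptor gene, read 4.32, 3.12 and 2.65 FPKM at CT0 and 2.36, 1.74 and 2.15 at CT16, and its log2 amplitude was 0.49 with and 0.25 without CT12 replicate 1, in which it stood at 0.077 FPKM. Prok2 itself missed the threshold (JTK_CYCLE p = 0.0724), with 1.03, 1.4 and 1.86 FPKM at CT0 and 0.274, 0.417 and 0.459 FPKM at CT16, groups that did not overlap. Penk, the enkephalin precursor gene, was called with CT12 replicate 1 (JTK_CYCLE p = 0.0441) and not without it (p = 0.147).

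Avp and Vip, the peptides that define the shell and the core of the SCN, had no 24 h pattern that passed. Avp, the vasopressin gene of the shell, read 103, 357 and 424 FPKM at CT0, 420, 334 and 382 at CT4, 316, 447 and 232 at CT8, 18.5, 291 and 195 at CT12, 149, 435 and 367 at CT16 and 468, 498 and 472 at CT20 (JTK_CYCLE p = 0.264). Its CT20 libraries were the 3 highest of the day. Vip, the peptide of the light-receiving core, read 13.8, 7.58 and 18 FPKM at CT0, 22.3, 27.5 and 11.5 at CT4, 17.6, 1.66 and 9.81 at CT12, 0.493, 17.4 and 16.4 at CT16 and 1.13, 16.1 and 20.1 at CT20. The libraries of CT16 differed among themselves by more than the time means did (JTK_CYCLE p = 1).

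Of 11 expressed genes of SCN identity, 4 were called (Vax1, Syt10 and Lhx1 among them), against 6.62% of expressed genes, and 3 without CT12 replicate 1. All 4 had peaks at CT2, and 2.13% of expressed genes were called with a peak at CT0 to CT4. Vax1, a homeobox gene of the ventral forebrain, read 3.54, 3.23 and 5.14 FPKM at CT0, 4.32, 5.03 and 3.04 at CT4, 3.7, 2.65 and 3.57 at CT8, 0.637, 1.34 and 2.02 at CT12, 1.35, 2 and 2.08 at CT16 and 1.77, 4.41 and 4.01 at CT20. All 9 libraries of CT0 to CT8 lay above all 6 of CT12 and CT16 (log2 amplitude 0.69 ± 0.13 with and 0.59 without CT12 replicate 1, peak at CT1.81 ± 0.717 h, limma adjusted p = 0.234). Lhx1, which controls the coupling peptides of the SCN, lost its call without CT12 replicate 1 (JTK_CYCLE p = 0.147).

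The GABA list gave 2 of 17 calls (11.8%), against 6.62% of expressed genes. They were Slc32a1, the vesicular GABA transporter, and Gad2, which makes GABA. Both had peaks at CT2, and 2.13% of expressed genes were called with a peak at CT0 to CT4. Slc32a1 read 49.8, 42.8 and 41.5 FPKM at CT0, 37.1, 46.6 and 23.8 at CT4, 42.2, 22.6 and 37 at CT8, 17.8, 23.7 and 28.5 at CT12, 28.8, 18.4 and 25.7 at CT16 and 29.3, 39 and 39.6 at CT20. The CT0 libraries lay above all of CT12, CT16 and CT20 (log2 amplitude 0.44 ± 0.10 with and 0.40 without CT12 replicate 1, peak at CT1.17 ± 0.884 h). Gad2 read 112, 73.5 and 85.4 FPKM at CT0 and 22.5, 42.9 and 56.5 FPKM at CT12 (log2 amplitude 0.52 ± 0.11 with and 0.43 without CT12 replicate 1). The count depended on single libraries and was 5 without CT12 replicate 1, 6 without CT4 replicate 3, 4 without CT4 replicate 1 and 5 without CT16 replicate 1.

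The markers of SCN neurons and of nearby nuclei were examined beside these genes. Of the 8 SCN neuron markers 4 were called (3 without CT12 replicate 1), against 6.62% of expressed genes. Of the 6 markers of the paraventricular and supraoptic nuclei 3 were called. All of these had peaks at CT0 to CT4, and 2.13% of expressed genes were called with a peak there. Of the markers of the arcuate nucleus, the thalamus and the preoptic area, 6 each, 0 were called. Markers of ependymal cells and tanycytes (2 of 6), of striatum and septum (1 of 4) and of neurons in general (1 of 7) were also called at CT0 to CT4. The called markers of choroid plexus (1 of 4), meninges (2 of 6) and cortex and hippocampus (2 of 5) peaked at other times. The SCN markers include Nms, Vipr2, Lhx1, Rgs16 and Prok2 and are not a separate measure of these genes. CT0 replicate 1 had the lowest SCN marker sum apart from CT12 replicate 1, 148 FPKM, of which Avp made up 103 FPKM, and the highest values of Slc32a1 and Gad2. The paraventricular and supraoptic sum was 914 to 1288 FPKM at CT0, 568 and 708 FPKM at CT12 (45.4 FPKM in CT12 replicate 1), 383 to 1103 FPKM at CT16 and 1075 to 1155 FPKM at CT20. It includes Trh, and also Avp, which is counted among the SCN neuron markers, so it is not a separate measure from the SCN sum. Trh, the thyrotropin-releasing hormone gene of the paraventricular nucleus, read 149, 100 and 146 FPKM at CT0, 107, 169 and 57.8 at CT4, 83.9, 58.8 and 81.3 at CT8, 3.87, 49.6 and 56.6 at CT12, 51.7, 56.2 and 41.8 at CT16 and 75.2, 96.7 and 94.3 at CT20 (JTK_CYCLE p = 0.000104, log2 amplitude 1.07 with and 0.71 without CT12 replicate 1). SCN identity genes varied within time points by a median SD of 0.545 on the log2 scale in Ctrl DD and 0.172 in Ctrl LD. The part of the tissue content in these rhythms was not tested.

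Interferon response genes made up a group with a peak around subjective dusk. The list of 26 was put together after its members had been seen among the small p-values, so its count is a description. JTK_CYCLE called 19 of the 26, against 6.62% of expressed genes. All 19 had peaks at CT12 to CT14, and 2.92% of expressed genes were called with a peak at CT12 to CT16. Without CT12 replicate 1, 14 were called, 13 of them shared, and without CT0 replicate 1 the count was 11. The median log2 amplitude was 0.33. In Ctrl LD 4 of the 26 were called, against 10.9% of the genes expressed there. The promoters of Ifit1 and Rsad2, genes of the antiviral response, are shown because they carry the interferon-stimulated response element (GAAA, any 2 bases and GAAA again), in capitals on either strand, which 12 of the 22 listed genes with a RefSeq window held, against 3.44% of all windows.
Ifit1 (chr19:34640639-34640938, plus strand): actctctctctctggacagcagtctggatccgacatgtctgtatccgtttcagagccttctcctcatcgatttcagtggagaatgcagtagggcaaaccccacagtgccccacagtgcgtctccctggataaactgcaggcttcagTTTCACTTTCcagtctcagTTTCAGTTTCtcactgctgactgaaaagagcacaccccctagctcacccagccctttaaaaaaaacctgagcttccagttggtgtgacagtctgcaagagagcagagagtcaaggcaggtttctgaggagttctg
Rsad2 (chr12:26456403-26456702, minus strand): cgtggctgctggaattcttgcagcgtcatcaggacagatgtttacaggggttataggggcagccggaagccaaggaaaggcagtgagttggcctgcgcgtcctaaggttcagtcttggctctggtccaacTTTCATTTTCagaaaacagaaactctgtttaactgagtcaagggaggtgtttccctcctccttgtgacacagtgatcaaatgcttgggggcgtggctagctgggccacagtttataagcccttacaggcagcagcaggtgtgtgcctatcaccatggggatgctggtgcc

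Ifit1, which binds viral RNA, read 0.692, 0.958 and 0.538 FPKM at CT0, 2.25, 0.952 and 1.02 at CT4, 5.44, 2.27 and 1.03 at CT8, 6.95, 1.94 and 2.35 at CT12, 0.887, 2.06 and 2.75 at CT16 and 1.33, 1.86 and 1.66 at CT20. Its highest values stood in CT12 replicate 1 and CT8 replicate 1, and its call was lost without the former (JTK_CYCLE p = 0.0147 with and 0.0535 without it). Ifi35, an interferon-induced protein gene, was less dependent on those libraries, with 1.01, 1.88 and 1.36 FPKM at CT0, 2.07, 1.29 and 1.82 at CT4, 2.3, 2.43 and 1.73 at CT8, 2.98, 2.82 and 2.65 at CT12, 2.09, 2.27 and 2.7 at CT16 and 2.2, 1.99 and 1.69 at CT20. Every CT12 library exceeded every library of CT0 to CT8 (log2 amplitude 0.36 ± 0.07 with and 0.34 without CT12 replicate 1, peak at CT12.7 ± 0.688 h, JTK_CYCLE p = 0.000265, limma adjusted p = 0.234).

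Psmb8 and Psmb9, the inducible subunits of the immunoproteasome, belong to the same list of 26 and are not a separate measure of it. Psmb9 read 1, 0.978 and 0.827 FPKM at CT0, 1.64, 1.02 and 1.87 at CT4, 1.71, 1.86 and 1.89 at CT8, 2.09, 1.88 and 2.52 at CT12, 1.65, 2.22 and 2.01 at CT16 and 1.99, 1.71 and 1.84 at CT20 (JTK_CYCLE p = 0.000943, log2 amplitude 0.36 with and without CT12 replicate 1). The CT0 libraries were the 3 lowest of the 18. Of the 38 expressed proteasome subunits 4 were called (10.5%), against 6.62% of expressed genes, and 3 without CT12 replicate 1. Of the 4, only Psmb8 and Psmb9 peaked at CT12 to CT16, and 2.92% of expressed genes were called with a peak there. Irf7, a transcription factor that drives the response, read 0.604, 0.833 and 0.682 FPKM at CT0, 4.2, 1.42 and 1.07 at CT8 and 3.53, 1.67 and 2.27 at CT12, and Ifi27 16.5, 24.2 and 17.4 FPKM at CT0 and 30.8, 35.4 and 33.7 FPKM at CT12. For both genes CT0 and CT12 did not overlap.

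The mean log2 deviation of the 26 genes from their own means was -0.58, -0.27 and -0.51 in the CT0 libraries, 0.68 in CT8 replicate 1, 0.76 in CT12 replicate 1 and between -0.33 and 0.32 in the other 13. The 7 microglial markers summed to 92.5 to 100 FPKM at CT0 and at CT12 to 107 and 124 FPKM, beside 156 FPKM in CT12 replicate 1, and none of them was called. The meningeal sum was 16.1 FPKM in CT8 replicate 1 and 167 FPKM in CT12 replicate 1, the libraries in which the interferon genes were highest. The part of these cells in the interferon pattern was not tested.

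**Figure D5:**
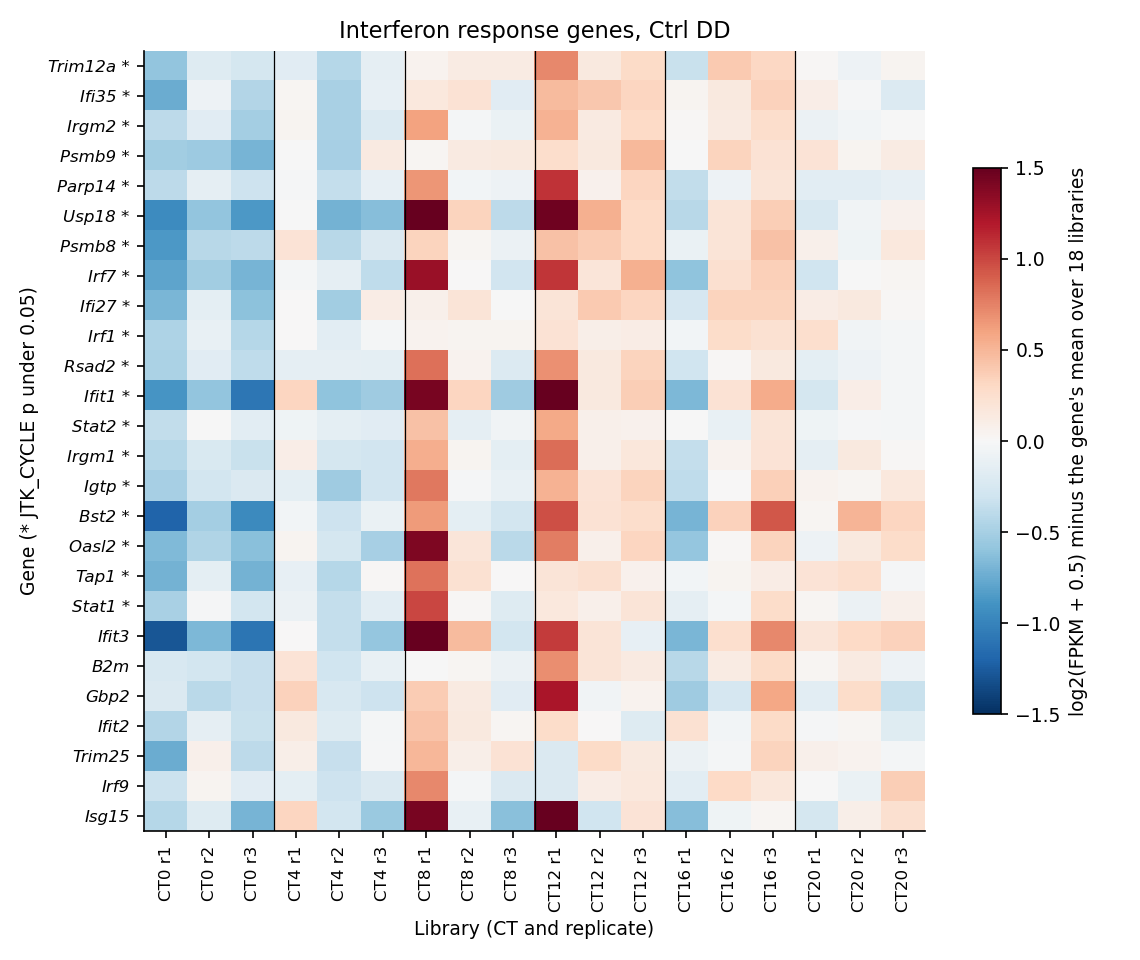
log2(FPKM + 0.5) of 26 interferon response genes (y axis, ordered by JTK_CYCLE p, asterisks mark p under 0.05) in the 18 Ctrl DD libraries (x axis, by CT and replicate), as the difference from each gene's mean, from blue (lower) to red (higher). The CT0 libraries are mostly blue, with mean differences of -0.58, -0.27 and -0.51, and CT8 replicate 1 and CT12 replicate 1 are the reddest.

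Among genes of fibroblast matrix, 7 of 17 listed after the values were seen were called, against 6.62% of expressed genes. These were Dcn, Lum, Mfap4, Col3a1, Bgn, Fbln2 and Serping1, all with peaks at CT14 to CT16 by JTK_CYCLE. A peak at CT12 to CT16 was called for 2.92% of expressed genes. Without CT12 replicate 1, 5 of the 17 were called. Leaving out CT0 replicate 3, CT4 replicate 2, CT4 replicate 3 or CT16 replicate 3 gave 4. Dcn, a proteoglycan gene of meningeal fibroblasts, read 4.82, 3.73 and 3.46 FPKM at CT0, 24.2, 3.71 and 5.02 at CT4, 6.03, 18 and 14.6 at CT8, 51.8, 20.6 and 20.2 at CT12, 14, 25.8 and 34.8 at CT16 and 17, 15.3 and 4.93 at CT20. Its CT4 libraries alone reached from the level of CT0 to that of CT12, and its log2 amplitude was 1.23 with and 1.10 without CT12 replicate 1. Cga had 0.0548, 0.243 and 1.25 FPKM at CT0, 31.4, 0.561 and 0.131 at CT4, 3.92, 21.2 and 31.5 at CT8, 0.19, 42.3 and 36.5 at CT12, 21.3, 41.9 and 30.9 at CT16 and 19.4, 6.93 and 0.772 at CT20, and was the called gene with the largest log2 amplitude, 2.08 ± 0.65 with and 2.74 without CT12 replicate 1. Both mark tissue that borders the SCN. Whether dissection moved with the time of day cannot be told apart from a rhythm of these genes.

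The other lists gave few calls, against the background of 6.62%. None of 20 heat shock, 22 sterol synthesis and 11 tryptophan and serotonin genes was called. Immediate early genes gave 2 of 18 (Sik1 and Egr3, and 0 without CT12 replicate 1), splicing factors 1 of 30 (Srsf11), cold-inducible and CLK genes 2 of 7 (Srsf5 and Clk2), glucocorticoid response genes 1 of 16 (Cdkn1a), NAD metabolism 1 of 13 (Nampt) and cAMP and calcium signalling 3 of 31 (Rgs10, Rgs16 and Pde4b). Potassium channels gave 2 of 30 (Kcnc1 and Kcnj10), endoplasmic reticulum stress 1 of 21 (Xbp1), ribosomal proteins 2 of 96, oxidative phosphorylation 5 of 95 and core histones 1 of 27. Srsf5, a splicing factor gene, moved by a log2 amplitude of 0.06 ± 0.02 between 157 and 190 FPKM in darkness, and by 0.30 in Ctrl LD.

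The difference in rhythm between darkness and the light cycle was tested itself, as the interaction of light with the 24 h cosine and sine over the 36 control libraries. In limma 6 of 14426 genes passed an adjusted p of 0.05 (0.0416%) and 2147 an unadjusted p of 0.05 (14.9%). They were Xpa, B230216N24Rik, Mfap4, Dcn, Timeless and Rnaset2a. The summed FPKM of a library was 317417 to 352980 in Ctrl DD and 403066 to 483096 in Ctrl LD, so the values were scaled by median-of-ratios factors for the fit, and level was a term of it. CT12 replicate 1 entered the fit, and without it 40 genes passed, these 6 included.

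Timeless had means of 0.64, 0.684, 0.824, 1.25, 1.74 and 0.78 FPKM from CT0 to CT20 in Ctrl DD and of 0.677, 0.737, 0.662, 0.559, 0.596 and 0.561 FPKM from ZT0 to ZT20 in Ctrl LD (log2 amplitudes 0.44 and 0.10, limma adjusted p = 0.0453, between 0.00805 and 0.0991 over the alternatives). On FPKM as deposited, not scaled between the groups, Ctrl LD reached at most 0.934 FPKM and the CT12 and CT16 libraries of Ctrl DD started at 1.08 FPKM. Xpa, a DNA damage recognition gene of nucleotide excision repair, peaked at CT17.9 in darkness, with 9.15, 8.95 and 8.99 FPKM at CT20 and 6.7, 6.47 and 6.41 FPKM at CT0, and at ZT7.53 in the light cycle, with means of 12.2 FPKM at ZT8 and 7.77 FPKM at ZT16 (limma adjusted p = 0.0366). Rnaset2a, a lysosomal ribonuclease gene with a near-identical copy among which reads may be shared, also changed its peak, from ZT5.89 to CT18.3 (limma adjusted p = 0.0483).

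The matrix genes Dcn and Mfap4 cycled in darkness with log2 amplitudes of 1.23 and 0.99 and in the light cycle with 0.33 and 0.21 (limma adjusted p = 0.0453 for both). The meningeal sum moved with them in darkness as given above, but it includes Dcn and is not a separate measure of that gene. B230216N24Rik, a gene without an assigned function, peaked at CT13.1 in darkness and at ZT3.88 in the light cycle (limma adjusted p = 0.0453). Among the core clock genes and outputs, Timeless alone passed this test. Ciart (limma adjusted p = 0.15), Tipin (0.162), Tspan4 (0.166) and Dbp (0.171) came next, with 24 h log2 amplitudes of 0.07, 0.06, 0.10 and 0.07 in darkness and 0.38, 0.34, 0.24 and 0.65 in the light cycle. A rhythm present in Ctrl LD and not called in Ctrl DD is therefore not shown to differ for these genes.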

How the data were processed

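Poly(A) RNA of the SCN was measured by RNA sequencing in 72 libraries. Per the submitters' processing notes, Trimmomatic, TopHat and Cufflinks were used with the mm10 genome, and the authors deposited FPKM values for 24883 genes, with no counts, so that depth and counting error are unknown. Of the 72 value columns 24 were not used. The 18 Ctrl DD and 18 Ctrl LD libraries were placed by the equality of their values with the study's table of oscillating genes and not by column name, and the columns as named were tried as an alternative. Sample groups were otherwise taken from the labels.

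JTK_CYCLE (period 24 h, Bonferroni corrected over 6 lags, p under 0.05) was run on FPKM as deposited. FPKM values were scaled by median-of-ratios factors and transformed as log2(FPKM + 0.5), and the cosinor and the rhythm difference were fitted in limma 3.58.1 (R 4.3.3) for genes averaging 0.5 FPKM or more, with Benjamini-Hochberg adjustment over all genes tested, so that folds of low genes are understated. Tables and figures were made with Python 3.11.15, numpy 2.4.6, pandas 2.3.3 and matplotlib 3.10.9. JTK_CYCLE, the 24 h cosinor and the rhythm difference were run on simulated data, and the 12 h fit and the correlations were not. Permutation tests of correlations were two-sided and used 100000 resamples.

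Alternatives were pseudocounts of 0.1 and 1, no filter or a filter at 1 FPKM, other scaling, a replicate block, time as a factor, and leaving out each library. Named genes were all those of the core clock, output and peptide lists, up to 4 of every other list by JTK_CYCLE p, the 10 smallest p-values of each test, the 5 largest amplitudes, 3 for each window of peak times, those of the rhythm difference, the 10 highest in CT12 replicate 1, and those the study names. The members and the lists were chosen with earlier results of these data known. The 12 h fit, the correlations with Dbp, the interferon, matrix and pars tuberalis lists, the interferon motif and the genes given for them were added after the values were seen. Of 6 pars tuberalis genes 5 were expressed and 1, Cga, was called. Values of 1 named gene are not reported here.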

Additional observations from a re-analysis of the deposited data

Results flagged for a closer look

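For 6 genes the 24 h rhythm differed between Ctrl DD and Ctrl LD by the test of the difference itself, the interaction of light with the cosine and sine in limma. The adjusted p was 0.0366 for Xpa, 0.0453 for B230216N24Rik, Mfap4, Dcn and Timeless, and 0.0483 for Rnaset2a. Over the 42 or 43 alternatives that gave each gene a value, the adjusted p ran from 0.00331 to 0.0874 for Xpa, which passed in 31 of 43, and from 0.00805 to 0.0991 for Timeless, which passed in 15 of 42. It ran from 0.0076 to 0.0923 for B230216N24Rik (20 of 43), from 0.000492 to 0.169 for Dcn (18 of 43), from 0.00765 to 0.181 for Mfap4 (17 of 42) and from 0.0209 to 0.166 for Rnaset2a (13 of 43). Dcn and Mfap4 are matrix genes, and the meningeal marker sum, which includes Dcn, varied between 12.5 and 167 FPKM among the Ctrl DD libraries. Its part in these 2 results was not tested.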

How the results depend on the processing

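The JTK_CYCLE count of 1225 genes became 0 after Benjamini-Hochberg adjustment and 6874 with the columns as named, which are other libraries. It was 959 and 865 with filters at 0.5 and 1 FPKM, 1258 after scaling, 1184 by the limma cosinor at an unadjusted p, and 821 to 1463 with 1 library left out. The cosinor count of 0 at an adjusted p became 1184 at an unadjusted p and 7858 with the columns as named. It was 0 to 1 with 1 library left out, the 1 being Frmpd3 without CT16 replicate 1, with 857 to 1725 genes at an unadjusted p. The rhythm difference was the least stable. Its 6 genes became 2147 at an unadjusted p, 23 with FPKM as deposited (all 6 shared), 1 with a filter at 1 FPKM, 0 without a filter (2730 at an unadjusted p in limma), 1 with a pseudocount of 1 and 4 with time as a factor, none of them shared. With 1 library left out it was 0 to 106. It was 106 without Ctrl LD ZT20 replicate 2, 40 without CT12 replicate 1, 33 without CT16 replicate 1, 21 without CT4 replicate 1 or 3 and 14 without ZT16 replicate 1. It was 3 without ZT16 replicate 3, 2 without CT0 replicate 1, CT16 replicate 3 or ZT4 replicate 1, and 1 without CT0 replicate 2 or 3, CT8 replicate 2, ZT0 replicate 1 or 2, or ZT12 replicate 3. It was 0 without CT4 replicate 2, CT16 replicate 2, ZT4 replicate 2 or 3, any ZT8 library, ZT12 replicate 2, ZT16 replicate 2 or ZT20 replicate 3. The cause was not tested.

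Replicate numbers did not pair the libraries. The deviations of same-numbered libraries had a median correlation of -0.035 over 45 pairs, of which 11 exceeded 0.1, and 8 of 18 libraries correlated best with their own number. With a replicate block the counts were 1368 for JTK_CYCLE, 0 for the cosinor and 2 for the rhythm difference.

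No named gene passed the adjusted cosinor threshold under the other pseudocounts, filters, scaling or the block, or with 1 library left out, except Frmpd3 as above. Since none passed it to begin with, this says nothing about the stability of the JTK_CYCLE calls. Of the 959 expressed genes those calls hold, 615 were called again without CT12 replicate 1, and Penk, Lhx1, Sik1, Egr3 and Ifit1 were not. With the columns as named, 31 of the named genes that JTK_CYCLE called peaked more than 6 h away. Their log2 amplitudes there were 0.21 for Nampt, 0.12 for Timeless, 0.39 for Cckar, 0.44 for Nms, 0.15 for Prokr2, 0.27 for Vipr2, 0.21 for Lhx1, 0.17 for Sik1, 0.18 for Clk2, 0.22 for Srsf11, 0.60 for Rgs10, 0.047 for Pde4b, 0.78 for Slc32a1, 0.25 for Gad2, 0.21 for Kcnc1, 0.21 for Cox6a2, 0.42 for Hist1h4h, 0.20 for Slc25a34, 0.45 for Iqgap2, 0.19 for Zfp346, 0.34 for Trh, 0.098 for Cpxm2, 0.29 for Anxa8, 1.82 for Cga, 0.81 for Bpifa1, 1.08 for Ttr, 0.57 for Slc17a7, 0.13 for Xpa, 0.098 for B230216N24Rik, 0.23 for Mfap4 and 0.81 for Dcn.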
